A study of Homo sapiens with 7 samples.

Results

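The 10 genes described here make, carry or trim heparan sulfate. They are the extracellular sulfatases SULF1 and SULF2, the glypican core proteins GPC3, GPC4 and GPC6, the chain polymerase subunits EXT1 and EXT2, and the sulfotransferases NDST1, NDST2 and HS2ST1. They were taken by name from a table of 19775 genes. All 10 were listed and all 10 passed the filter for testing, a normalised read count averaging at least 10 across 7 libraries. The list was chosen by name with the differences in normalised count between XMD892 and E8 in the same 7 libraries already known, SULF1's first among them, so its members' values and differences are given as a description without p-values. RNA came from H1, an established wild-type line of human embryonic stem cells kept in E8, a medium that contains insulin, transferrin, FGF2 and TGFβ. The groups were untreated cells in E8 harvested at 48 h (2 libraries) and cells given 1 µM XMD892 in E8 for 12 h (1 library), 24 h (2 libraries) or 48 h (2 libraries). XMD892 is a kinase inhibitor used against ERK5, the MAP kinase that the study's title names. All samples are 1 cell line, and E8 was harvested at 48 h only, so at 12 h and 24 h treatment and time of harvest cannot be told apart.

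Heparan sulfate is a sulfated sugar chain built in the Golgi on a small set of core proteins, among them the glypicans, which are tied to the cell surface by a lipid anchor. EXT1 and EXT2 together lengthen the chain, NDST enzymes remove acetyl groups and add N-sulfates, and HS2ST1 adds 2-O-sulfates. SULF1 and SULF2 work outside the cell and remove 6-O-sulfates from finished chains. The pattern of sulfates sets how the chain holds growth factors such as FGFs, WNTs and BMPs and how FGFs meet their receptors, which matters in embryonic stem cells because E8 medium relies on FGF2.

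GPC4 and GPC6, the glypicans that were lower together in every treated library, lie on different chromosomes, and the bases before their starts differ widely in composition. The 250 bases before the RefSeq start (GRCh38.p14) are shown 5′ to 3′ on the strand of the gene, and capitals mark the GC box, the letters GGGCGG on either strand.
GPC4, chrX:133415490-133415739, minus strand: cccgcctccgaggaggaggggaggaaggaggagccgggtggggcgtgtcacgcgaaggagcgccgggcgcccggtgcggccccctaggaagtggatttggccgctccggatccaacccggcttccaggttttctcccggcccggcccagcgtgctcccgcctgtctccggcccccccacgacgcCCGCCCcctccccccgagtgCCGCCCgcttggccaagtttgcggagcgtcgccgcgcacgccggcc
GPC6, chr13:93226557-93226806, plus strand: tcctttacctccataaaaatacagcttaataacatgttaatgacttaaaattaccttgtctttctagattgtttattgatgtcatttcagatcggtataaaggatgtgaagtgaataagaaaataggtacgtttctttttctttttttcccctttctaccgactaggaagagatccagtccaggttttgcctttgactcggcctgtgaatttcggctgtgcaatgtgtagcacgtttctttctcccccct
The GPC4 window held 76.0% G and C and 2 GC boxes, and the GPC6 window held 37.6% and 0. GC boxes stood in 42.6% of all 35116 windows of this length, whose median GC content was 58.0%. Neither window held, on either strand, the ETS letters CCGGAA (14.5% of all windows), the AP-1 letters TGANTCA (6.57%), the E-box CACGTG (6.34%) or the MEF2 consensus (1.75%). No motif therefore overlapped another. These are letter matches only. A window was at hand for 7 of the 10 genes.

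Libraries held between 18528689 and 24148186 reads in the listed genes, and values are normalised read counts, that is reads divided by 1 factor per library. Whether replicates came from separate cultures is not stated, so each p-value reflects only how far these libraries spread, which may be technical. Across 11197 genes, which are not independent replicates, the log2 difference between the E8 libraries had a Spearman correlation of -0.77 with transcript GC content, beside -0.02 at 24 h and 0.33 at 48 h. All 8 pluripotency markers checked were present, with a summed level between 137376 and 169696. The largest of them was POU5F1, with a mean of 56452 over the 7 libraries, so the sum can hide differences in the others. Of 7 mesenchyme markers 3 were listed, and COL3A1, LUM, DCN and TWIST1 are not analysed here. Of 7 endoderm markers 2 were listed, with a sum of at most 58.9. In bulk RNA, fewer cells of a type and less RNA per cell cannot be told apart.

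SULF1, the sulfatase on chromosome 8 (69466624 to 69660915, GRCh38), showed the widest swing of the 10 genes. Its normalised count was 487 and 459 in the E8 libraries, 38.6 at 12 h of XMD892, 79.1 and 76.7 at 24 h, and 185 and 165 at 48 h. E8 was highest, the 12 h library lowest, and the 24 h and 48 h libraries lay between them in order of time with no overlap between groups. Group means were 473 ± 20.2 (SD, n = 2) in E8, 77.9 ± 1.73 (n = 2) at 24 h and 175 ± 14.2 (n = 2) at 48 h. The level was thus 12.2-fold lower than E8 at 12 h, 6.07-fold lower at 24 h and 2.71-fold lower at 48 h, or 8.17%, 16.5% and 36.9% of E8. On the log2 scale (value + 1) the differences were -3.58 (SE 0.25), -2.59 (SE 0.21) and -1.43 (SE 0.21). Between 24 h and 48 h the level was 2.24-fold higher. The 12 h value rests on 36 reads in 1 library, with an exact Poisson 95% interval of 27.1 to 53.5 normalised counts that covers counting error only, and it lies below the intervals at 24 h (62.4 to 99.1 and 61.0 to 95.2).

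Sums over some marker lists of other cell types also differed between E8 and treated libraries, and a sum can rest largely on 1 gene. Summed mesoderm markers (4 of 6 listed, TBXT and HAND1 are not analysed here) stood at 314 and 312 in E8, 65.5 after 12 h, 123 and 126 after 24 h, and 116 and 109 after 48 h. The largest of them was MIXL1, with a mean of 115 over the 7 libraries. Summed trophoblast and amnion markers (4 of 5 listed, with TFAP2A at 0 in at least 1 library) stood at 341 and 356, 132, 144 and 143, and 170 and 227. KRT7 was the largest of these, with a mean of 112. Summed mesenchyme markers, of which COL1A2 was the largest, were highest at 12 h, with 1933 and 2334 in E8, 2900 after 12 h, 2534 and 2536 after 24 h, and 2404 and 2149 after 48 h. Summed neuroectoderm markers, of which ZIC1 was the largest, were higher in both E8 libraries, at 3713 and 3943, than in any treated one, at 2893 after 12 h, 2854 and 3550 after 24 h, and 3497 and 3427 after 48 h. The endoderm sum, near the floor, stood at 57.6 and 48.8 in E8, 30.1 after 12 h, 29.2 and 58.9 after 24 h, and 40.0 and 36.7 after 48 h, so it overlapped E8 at 24 h. The part of these lists in the SULF1 result was not tested.

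**Figure D1:**
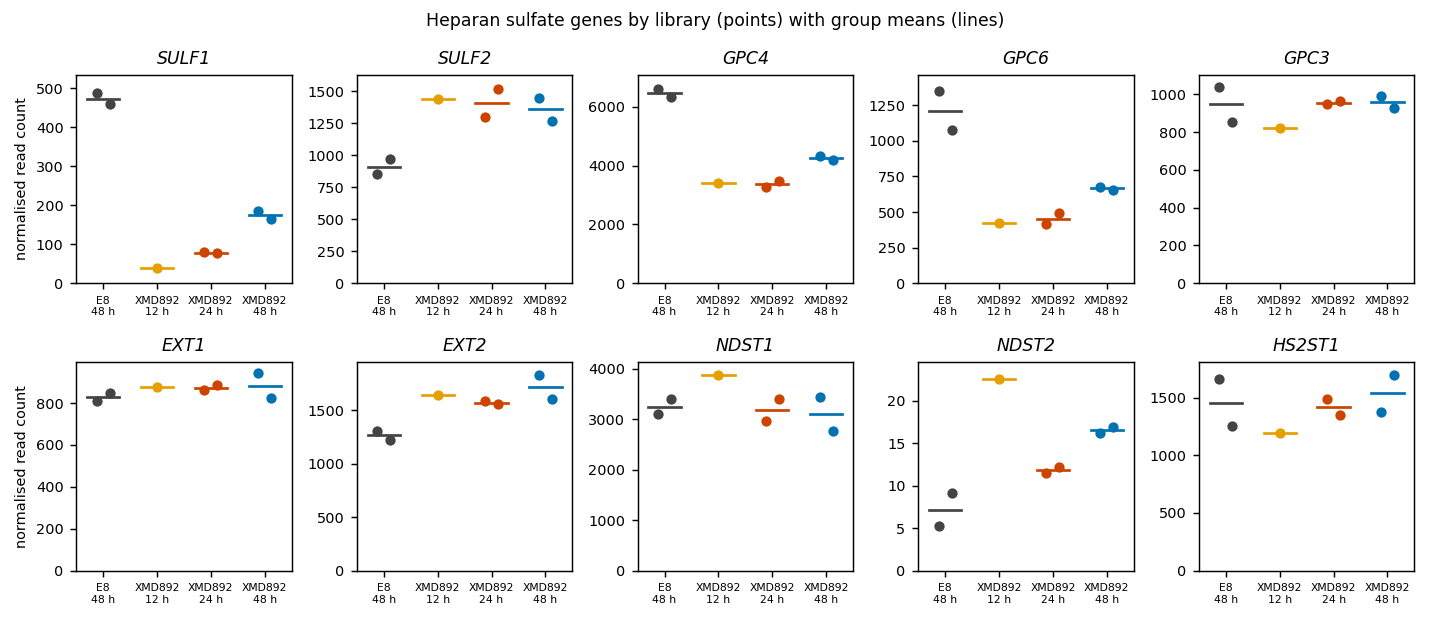
Normalised read count (vertical axis, from 0) of each of the 10 genes in each library (points), by group, with lines at the group means. SULF1 stood at 38.6 at 12 h against 487 and 459 in E8 and at 185 and 165 by 48 h, while GPC3 and EXT1 stayed within a narrow range.

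SULF2, the second sulfatase, on chromosome 20 (47656348 to 47786616), lay on the other side of E8. It stood at 853 and 968 in E8, 1435 after 12 h, 1298 and 1519 after 24 h, and 1448 and 1266 after 48 h. Every treated library was above both E8 libraries, and the 3 treated times overlapped one another. It was 1.58-fold, 1.55-fold and 1.49-fold higher than E8 (log2 differences 0.66, SE 0.19; 0.63, SE 0.16; 0.58, SE 0.16). Of its exon bases, 4.63% overlap genes on the other strand (NCOA3 and AL354813.1), and the strand setting of the counting is not given in the sources used here.

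The ratio of the sulfatase transcripts within a library does not depend on how libraries are scaled. SULF2 counts were 1.75 and 2.11 times SULF1 counts in E8, 37.1 after 12 h, 16.4 and 19.8 after 24 h and 7.84 and 7.69 after 48 h. Levels per kilobase of exon allow a rough comparison of different genes. The length, here and below, is that of all annotated exons merged, not of the transcripts expressed. Per kilobase, SULF1 made up 28.8% and 25.1% of the 2 sulfatases in E8, 1.87% after 12 h, 4.14% and 3.45% after 24 h, and 8.28% and 8.43% after 48 h. Their summed level per kilobase was 180 and 194 in E8 and between 203 and 237 in the treated libraries, so the total was at or above E8 in every treated library while SULF1's share of it was lower.

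**Figure D2:**
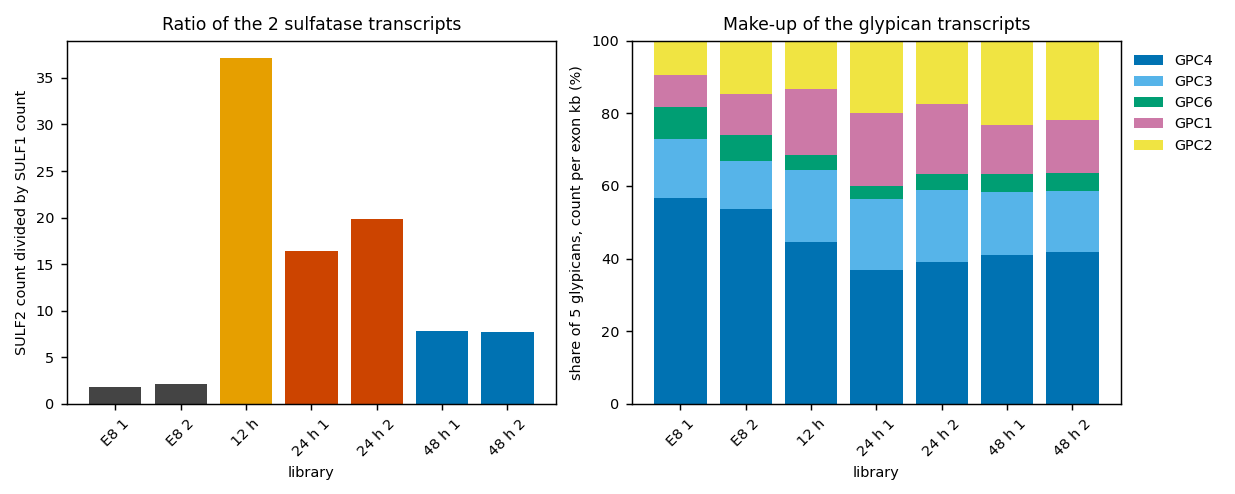
Left, SULF2 count divided by SULF1 count in each library; right, the share of each of 5 glypicans in their summed count per exon kilobase. The ratio was 37.1 at 12 h against 1.75 and 2.11 in E8, and GPC4's share was lower in every treated library than in E8.

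GPC4, a glypican on chromosome X (133300103 to 133415490), was the highest of the 10 genes per exon kilobase in every group. Its normalised count was 6590 and 6324 in E8, 3390 after 12 h, 3280 and 3471 after 24 h, and 4309 and 4205 after 48 h. Treated libraries were all below E8, the 12 h library lay between the 24 h libraries, and both 48 h libraries were above the earlier ones. The level was 52.5% of E8 at 12 h, 52.3% at 24 h and 65.9% at 48 h, with log2 differences of -0.93 (SE 0.17), -0.94 (SE 0.14) and -0.60 (SE 0.14).

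GPC6, of the same subfamily as GPC4 and on chromosome 13 (93226842 to 94407401), followed the same course with a larger difference. It stood at 1350 and 1076 in E8, 423 after 12 h, 416 and 491 after 24 h, and 675 and 659 after 48 h. No treated library reached E8, the 12 h library fell within the 24 h pair, and 48 h was above both. GPC6 was at 34.9%, 37.4% and 55.0% of E8, with log2 differences of -1.51 (SE 0.21), -1.41 (SE 0.17) and -0.85 (SE 0.17). Of its exon bases, 7.36% overlap AL354811.1 on the other strand.

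GPC3, which belongs to the other glypican subfamily and binds hedgehog and WNT ligands, lies beside GPC4 on chromosome X (133535745 to 133985895) and showed no such difference. Its counts were 1042 and 852 in E8, 820 at 12 h, 947 and 964 after 24 h and 993 and 929 after 48 h. Both E8 values enclosed all of the 24 h and 48 h values, and the log2 differences were 0.02 and 0.03 (SE 0.16 each). Their sign turned under 3 of 16 alternatives at 24 h and 4 of 16 at 48 h, among them leaving out E8 replicate 2. GPC4 counts were 6.33 and 7.42 times GPC3 counts in E8, 4.13 after 12 h, 3.47 and 3.60 after 24 h, and 4.34 and 4.53 after 48 h.

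With GPC1 and GPC2, the remaining glypicans listed, the family summed to 2347 and 2374 normalised counts per exon kilobase in E8, 1534 after 12 h, 1789 and 1792 after 24 h, and 2116 and 2032 after 48 h. GPC4's share of that sum was 56.6% and 53.7% in E8, 44.5% after 12 h, 37.0% and 39.1% after 24 h, and 41.1% and 41.7% after 48 h. GPC1 and GPC2 were not among the 10 genes, and their tests are given with the other core proteins.

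EXT2, on chromosome 11 (44095549 to 44245429), which pairs with EXT1 to form the chain polymerase, stood at 1305 and 1225 in E8, 1641 after 12 h, 1582 and 1560 after 24 h, and 1829 and 1604 after 48 h. All treated libraries were above both E8 libraries. The difference was 1.30-fold, 1.24-fold and 1.36-fold (log2 0.38, SE 0.18; 0.31, SE 0.15; 0.44, SE 0.15). EXT1, on chromosome 8 (117794490 to 118111853), stood at 811 and 846 in E8 and between 822 and 943 in the treated libraries, with log2 differences of 0.08, 0.08 and 0.09 (SE 0.19, 0.15 and 0.15). The EXT2 to EXT1 count ratio was 1.61 and 1.45 in E8 and between 1.77 and 1.95 in treated libraries.

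NDST1, the main N-deacetylase and N-sulfotransferase by count here (chromosome 5, 150485818 to 150558211), overlapped E8 at 24 h and 48 h. It stood at 3102 and 3398 in E8, 3887 after 12 h, 2972 and 3398 after 24 h, and 3437 and 2773 after 48 h. The log2 differences were 0.26 (SE 0.18), -0.03 (SE 0.15) and -0.07 (SE 0.15). HS2ST1, the 2-O-sulfotransferase on chromosome 1 (86914648 to 87109998), stood at 1662 and 1253 in E8, 1195 after 12 h, 1493 and 1354 after 24 h, and 1380 and 1701 after 48 h. Its E8 pair spanned most of the other values, and the log2 differences were -0.27 (SE 0.20), -0.02 and 0.09 (SE 0.16 each).

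NDST2, a second enzyme of the NDST type on chromosome 10 (73801911 to 73811798), was counted at very low levels. It held 6 and 11 reads in E8, 21 after 12 h, 11 and 13 after 24 h, and 15 and 17 after 48 h, or normalised counts of 5.24 and 9.09, 22.5, 11.5 and 12.2, and 16.2 and 16.9. All treated libraries were above E8, with log2 differences of 1.57 (SE 0.66), 0.69 (SE 0.54) and 1.14 (SE 0.54). However, the exact Poisson 95% interval of E8 replicate 2, from 4.54 to 16.3, contains the values of both 24 h libraries and of 48 h replicate 1. The gene passed the filter of 10 only through its treated libraries, since its E8 mean was 7.16, so its direction is partly selected. Of its exon bases, 82.9% lie under AC022400.6, a gene model on the same strand, and how reads shared by 2 genes were counted is not given in the sources used here, so how much of this level is NDST2 was not tested.

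**Figure D3:**
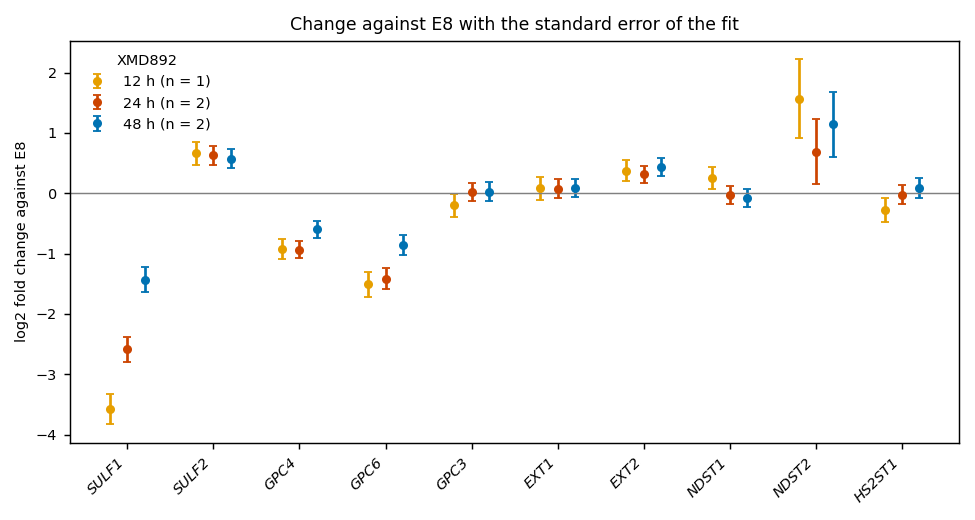
Log2 fold change against E8 (value + 1) of each gene at 12 h, 24 h and 48 h of XMD892, with the standard error of the fit as bars. SULF1 moved from -3.58 to -1.43 over time, GPC4 and GPC6 were below 0 at each time, and SULF2 stayed between 0.58 and 0.66.

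By the fit used for all genes, SULF1, GPC4 and GPC6 were called lower and SULF2 higher at 12 h, 24 h and 48 h, that is 4 of the 10 each time. Of all tested genes 7.46% were called at 12 h (2.56% higher and 4.89% lower), 16.2% at 24 h (8.66% and 7.56%) and 11.5% at 48 h (5.08% and 6.45%). Between 24 h and 48 h 1 of the 10, SULF1, was called, against 1.20% of all tested genes (0.349% higher and 0.856% lower). Because the genes were listed with these results known, nothing is read from those counts. The 3 comparisons with E8 share the same 2 control libraries.

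In E8 the order of levels per exon kilobase was GPC4 at 1302, GPC3 at 349, NDST1 at 341, EXT2 at 239, HS2ST1 at 196, GPC6 at 188, SULF2 at 137, EXT1 at 99.5, SULF1 at 50.3 and NDST2 at 1.54. The E8 libraries of GPC3 (384 and 314) overlapped those of its neighbour NDST1 (326 and 357), and those of HS2ST1 (224 and 169) overlapped those of GPC6 (209 and 166), so neither pair has a clear order. The other neighbours did not overlap. At 48 h SULF2 stood at 204, above GPC6 at 103, while EXT1 at 106 and GPC6 overlapped, and SULF1 at 18.6 was above NDST2 at 3.55.

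Other genes of heparan sulfate making and breakdown were listed by function (53 genes, 50 in the table, 48 tested). They were tested with limma, with Benjamini-Hochberg adjustment over all 16351 tested genes. The list was drawn up with earlier results of these data known, so its counts beside the shares over all genes are a description. At 12 h 1 of 48 passed (2.08%), at 24 h 13 (27.1%; 8 higher, 5 lower) and at 48 h 10 (20.8%; 5 higher, 5 lower). The shares over all tested genes are those given above. The median log2 fold change of the 48 genes was 0.09 at 24 h and 0.02 at 48 h, beside 0.01 and 0.02 over all tested genes. With each library's GC trend removed, the 24 h split was 2 higher and 8 lower and the 48 h split 8 and 6. The 24 h split over all tested genes also turned, from 1416 higher and 1236 lower to 1471 and 1794. At 48 h it was 830 and 1054 before that correction and 1367 and 1711 after it. With quantile normalisation the 24 h split of the list was 6 and 6, beside 1364 and 1286 over all tested genes. The 8 genes higher at 24 h had transcript GC contents between 59.1% and 67.5%, and 6 of the 8 (all but B3GAT3 and HS6ST1) were not called once the GC trend was removed. Without 24 h replicate 1, 3 of the 13 calls were kept (HS6ST1, AGRN and COL18A1), and without 24 h replicate 2, 6 were kept. Without E8 replicate 1, 6 were kept. Of the 10 calls at 48 h, 4 were kept without E8 replicate 1, 1 (HS3ST3B1) without 48 h replicate 1 and 2 (HS3ST3B1 and GPC2) without 48 h replicate 2.

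**Figure D4:**
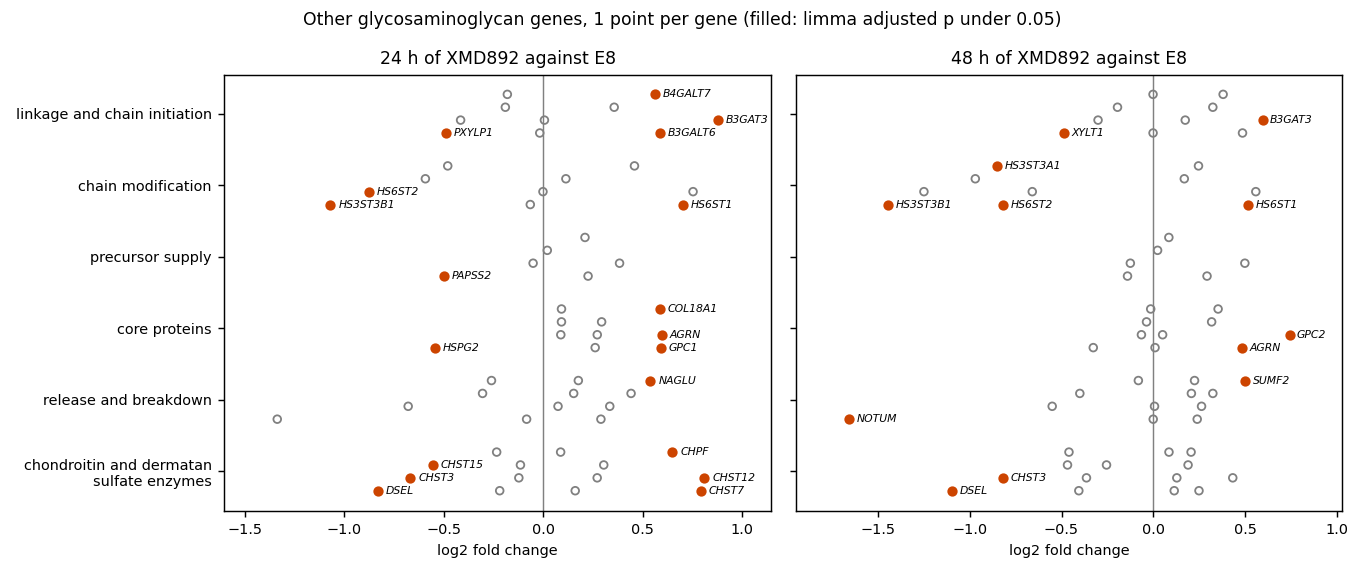
Log2 fold change against E8 of the other glycosaminoglycan genes at 24 h (left) and 48 h (right), 1 point per gene by function, with filled points for a limma adjusted p under 0.05. The calls lie on both sides of 0 at 24 h (8 higher and 5 lower heparan sulfate genes) and at 48 h (5 and 5).

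Among the enzymes that modify the chain, HS3ST3B1, a 3-O-sulfotransferase, fell at 24 h and 48 h and was called lower in the single 12 h library. It stood at 281 and 340 in E8, 140 after 12 h, 124 and 174 after 24 h, and 111 and 115 after 48 h. Its log2 fold changes were -1.14 (limma adjusted p = 0.0099), -1.07 (limma adjusted p = 0.0022) and -1.44 (limma adjusted p = 0.00012). The 12 h call takes its spread from the other groups, and no alternative can leave that library out. The 48 h call held under all 16 alternatives, and the 24 h call was lost without 24 h replicate 1 (limma adjusted p = 0.054). Its close paralog HS3ST3A1 stood at 114 and 174 in E8, 150 and 155 at 24 h and 69.1 and 87.3 at 48 h, and fell at 48 h (log2 -0.85, limma adjusted p = 0.026), a call lost without E8 replicate 2 or either 48 h library. How reads shared by these paralogs were counted is not given in the sources used here.

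Of the 3 tested 6-O-sulfotransferases, which add the sulfate that SULF1 and SULF2 remove, HS6ST1 rose, HS6ST2 fell and HS6ST3 did not pass at any time. HS6ST1 stood at 1811 and 2505 in E8, 3170 after 12 h, 3394 and 3541 after 24 h, and 3058 and 3031 after 48 h. It rose at 24 h (log2 0.70, SE 0.16, limma adjusted p = 0.0042), the single 24 h call of the list that held under all 16 alternatives, and at 48 h (log2 0.52, limma adjusted p = 0.035), which was lost without E8 replicate 1 or either 48 h library. HS6ST2 stood at 192 and 192 in E8, 174 after 12 h, 95.8 and 113 after 24 h, and 108 and 109 after 48 h. It fell at 24 h (log2 -0.88, limma adjusted p = 0.0083) and 48 h (log2 -0.82, limma adjusted p = 0.015), lost without 24 h replicate 1 and without either 48 h library, respectively. HS6ST3 stood at 69.8 and 62.8 in E8, 56.9 after 12 h, 52.1 and 36.5 after 24 h, and 65.9 and 84.3 after 48 h. Of the 13 chain modification genes 10 were tested, since NDST3 and HS3ST6 had means under 10 and NDST4 is not analysed here. Of the 10, 1 rose and 2 fell at 24 h, and 1 rose and 3 fell at 48 h. Over all tested genes 16.2% were called at 24 h and 11.5% at 48 h.

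Core proteins other than the 3 glypicans of the main list had 3 of 10 tested genes higher and 1 lower at 24 h, and 2 higher at 48 h. The shares called over all tested genes were 16.2% at 24 h and 11.5% at 48 h. AGRN, the agrin core protein, stood at 4712 and 6326 in E8 and at 7700 and 8868 at 24 h, and rose at 24 h (log2 0.60, limma adjusted p = 0.011) and 48 h (log2 0.48, limma adjusted p = 0.045). GPC1 rose from 1540 ± 319 (SD, n = 2) to 2294 ± 43.8 (n = 2) at 24 h (log2 0.59, limma adjusted p = 0.013), and GPC2 from 1094 ± 334 to 1787 ± 116 at 48 h (log2 0.74, limma adjusted p = 0.0089). COL18A1 rose at 24 h (log2 0.59, limma adjusted p = 0.037) and HSPG2, the perlecan core protein, fell (log2 -0.54, limma adjusted p = 0.041). Of COL18A1's exon bases 16.4% overlap SLC19A1 on the other strand, and of HSPG2's 11.7% overlap LDLRAD2. Without E8 replicate 1 the calls of AGRN at both times, GPC1, GPC2 and COL18A1 were lost. HSPG2 was lost without E8 replicate 2 or 24 h replicate 1, GPC1 without either 24 h library, AGRN at 24 h and COL18A1 without 24 h replicate 2, AGRN at 48 h without either 48 h library, and GPC2 without 48 h replicate 1. On recovered reads, COL18A1 at 24 h and AGRN at 48 h were called by neither edgeR nor DESeq2, and HSPG2 was not called by DESeq2. With the GC trend removed, the 24 h calls of GPC1, AGRN and COL18A1 were lost. The 4 syndecans, which carry heparan sulfate through the membrane, did not pass at any time; SDC2, for example, stood at 1945 and 1881 in E8, 2075 and 1994 at 24 h and 1879 and 1849 at 48 h.

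In the linkage region, the short sugar stem on which each chain starts, B4GALT7, B3GALT6 and B3GAT3 rose at 24 h and PXYLP1, a phosphatase that acts on the stem, fell, 4 of 10 tested genes. At 48 h 2 of the 10 were called. The shares over all tested genes were 16.2% at 24 h and 11.5% at 48 h. B3GAT3, which adds the last sugar of the stem, stood at 398 and 558 in E8, 992 and 758 at 24 h and 767 and 662 at 48 h (log2 0.88, limma adjusted p = 0.003 at 24 h; log2 0.59, limma adjusted p = 0.04 at 48 h). XYLT1, which adds the first sugar, fell at 48 h from 1102 ± 16.5 (SD, n = 2) to 790 ± 124 (n = 2), with a limma adjusted p of 0.049, and kept the call in 7 of 16 alternatives. The 24 h calls of B3GALT6 and B3GAT3 were lost without 24 h replicate 1, and B3GALT6 also without E8 replicate 1. B4GALT7 at 24 h was lost without E8 replicate 1, and the calls of B4GALT7, PXYLP1 and XYLT1 when any 1 of the 24 h or 48 h libraries was left out. PXYLP1 and XYLT1 were also lost without E8 replicate 1, and B3GAT3 at 48 h without E8 replicate 1 or either 48 h library. The XYLT1 call was also lost with a pseudocount of 0.5, no filter or TMM factors, and the PXYLP1 call with no filter. DESeq2 called neither B4GALT7 at 24 h nor B3GAT3 at 48 h, and both were lost with quantile normalisation.

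Among 6 tested genes of precursor supply, PAPSS2, which makes the sulfate donor, fell at 24 h from 695 ± 30.6 (SD, n = 2) to 491 ± 11.4 (n = 2) and stood at 630 ± 15.5 at 48 h (limma adjusted p = 0.036 at 24 h), a call lost when any 1 of the 24 h or 48 h libraries was left out. Of 12 tested genes of release and breakdown, NAGLU, a lysosomal enzyme, rose at 24 h (log2 0.54, limma adjusted p = 0.036). SUMF2, a relative of the enzyme that activates sulfatases, rose at 48 h (log2 0.50, limma adjusted p = 0.041). NOTUM, which has been reported to release glypicans from the surface, fell at 48 h from 34.5 ± 17.9 to 9.73 ± 3.07 (log2 -1.66, SE 0.52, limma adjusted p = 0.042). That call rests on few reads, 25 and 57 in E8 and 7 and 12 at 48 h. Without E8 replicate 1 the NAGLU and SUMF2 calls were lost, as they were when any 1 of the 24 h or 48 h libraries was left out, and NOTUM was lost without E8 replicate 2 or either 48 h library. Quantile normalisation ended all 3 of these calls, and DESeq2 that of NOTUM. At 24 h 1 of the 6 precursor genes and 1 of the 12 release and breakdown genes were called, beside 16.2% of all tested genes. At 48 h these counts were 0 of 6 and 2 of 12, beside 11.5%.

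Between 24 h and 48 h limma called 0 of the 48 heparan sulfate genes, beside 1.20% of all tested genes, and edgeR and DESeq2 also called 0. Of the 48, 7 had an unadjusted limma p under 0.05, a looser threshold that the 1.20% does not share. The share of all genes at that looser threshold was not counted.

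Chondroitin and dermatan sulfate share the linkage stem with heparan sulfate, and of 16 listed enzymes 14 were tested. At 24 h CHPF, CHST7 and CHST12 rose and CHST3, CHST15 and DSEL fell, and at 48 h CHST3 and DSEL fell. These were 6 of 14 at 24 h (42.9%, beside 16.2% of all tested genes) and 2 of 14 at 48 h (14.3%, beside 11.5%). This list too was drawn up with earlier results known, so the shares are a description. DSEL, a dermatan sulfate epimerase, stood at 1323 and 1251 in E8, 550 after 12 h, 719 and 727 after 24 h, and 560 and 645 after 48 h, and its log2 fold changes of -0.83 at 24 h and -1.10 at 48 h passed under all 16 alternatives (limma adjusted p = 0.0012 and 6.5e-05). In the single 12 h library, whose spread is taken from the other groups, the log2 fold change was -1.23 (limma adjusted p = 0.00034). Of its exon bases, 36.8% overlap genes on the other strand. CHST12, a chondroitin 4-O-sulfotransferase, rose at 24 h from 386 ± 26.4 (SD, n = 2) to 677 ± 37.5 (n = 2), a log2 change of 0.81 (limma adjusted p = 0.0021), and also passed under all 16. Without 24 h replicate 1 the 24 h calls of CHPF, CHST3, CHST7 and CHST15 were lost. CHST3 was also lost without E8 replicate 1 or 24 h replicate 2, CHST15 without E8 replicate 1 or either 48 h library, and CHST3 at 48 h without 48 h replicate 2.

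The course of SULF1 over the 7 libraries was compared with that of 11365 other genes with a mean of 100 or more, by Pearson's r of log2(value + 1). The 5 most alike were NFASC (r = 0.998), PMAIP1 (0.995), RNF157 (0.992), GNAL (0.991) and ERVH48-1 (0.988). NFASC, an adhesion protein of the nervous system, stood at 394 in E8, 131 at 12 h, 172 at 24 h and 254 at 48 h (means). ERVH48-1, an endogenous retroviral envelope gene, stood at 2365, 224, 437 and 701. The 5 most opposite were DESI1 (-0.995), TMEM185B (-0.990), HIST1H4H (-0.987), AC006504.5 (-0.986) and ANXA5 (-0.985). ANXA5, a phospholipid-binding annexin, had means of 4669, 7931, 6529 and 5603. Of the listed heparan sulfate genes GPC6 ranked 35th (r = 0.961) and GPC4 56th (0.953), while SULF2 had r = -0.839. The 7 points share their libraries and the choice of SULF1 for its course, so these values are descriptions.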

How the data were processed

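Poly(A) RNA from 7 samples was sequenced as paired ends on an Illumina NextSeq instrument, per the labels' protocols. Per the submitters' processing notes, the tools were Trimmomatic 0.36, STAR, featureCounts 1.5.3 and DESeq2 1.26.0 with hg38, in roles not given in the sources used here. The deposited values are a signal, reads per gene over a factor of each library, set by the authors; 100% of values were whole reads within 0.1 after division by the smallest step. The file lists genes with at least 6 reads over the 7 libraries. Another 2 columns, which match none of the samples, were left out.

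Genes with a mean of 10 or more (16351) were fitted as log2(value + 1) with limma 3.58.1 (R 4.3.3), 1 mean per group, a trended prior and 3 residual degrees of freedom; the 12 h library is assumed to vary like the others. The fit was run on simulated data with the same spread for all genes and no GC trend. That run could not address the GC difference between the E8 libraries. Calls needed a Benjamini-Hochberg adjusted p below 0.05. GENCODE 29 gave coordinates, merged exon lengths and GC content (98.0% of tested genes). Alternatives were pseudocounts, filters, TMM, quantiles, edgeR 4.0.16 and DESeq2 1.42.0 on recovered reads, a loess GC correction (span 0.3), a replicate block and leaving out each replicate. The members, lists and motifs were chosen with earlier results of these data known. Named genes are the members, up to 6 called genes per list and the 5 most and least like SULF1, with others for completeness.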

Additional observations from a re-analysis of the deposited data

Results flagged for a closer look

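CHST7, a chondroitin 6-O-sulfotransferase gene, was lower at 48 h than at 24 h of XMD892. This compares treated libraries only, since both times share the same E8 libraries, harvested at 48 h. Time in culture and length of treatment cannot be told apart. CHST7 stood at 400 and 475 in E8, 849 and 672 at 24 h and 454 and 471 at 48 h. It was called higher than E8 at 24 h and was not called at 48 h. The log2 fold change of 48 h against 24 h was -0.71 (SE 0.17, limma adjusted p = 0.046). The adjusted p reached 0.61 among the 16 alternatives, and the call was lost with TMM factors, without 24 h replicate 1 and without either 48 h library.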

How the results depend on the processing

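The differences of SULF1, SULF2, GPC4, GPC6 and EXT2 from E8 kept their sign under all 16 alternatives at 12 h, 24 h and 48 h. Part of these alternatives could not alter them: changing the filter, or leaving out a library of a group not compared, leaves a difference of group means as it was. SULF1 ranged from -3.63 to -3.45, from -2.63 to -2.48 and from -1.52 to -1.35. NDST2 at 48 h ranged from 0.80 to 1.49. With the GC trend removed, 2539 genes were called at 12 h (1219 without the correction), 3078 at 48 h (1884) and 430 between 24 h and 48 h (197); heparan sulfate calls were then 7 at 12 h and 2 between 24 h and 48 h, and chondroitin calls 2 at 12 h and 5 at 48 h. Quantile normalisation gave 1 heparan sulfate call between 24 h and 48 h, and TMM factors 0 chondroitin calls. Replicate numbers showed no pairing (correlations of deviations -0.035, -0.048 and -0.071); with them as a block, heparan sulfate calls were 2 at 12 h and 2 between 24 h and 48 h, and 11 at 24 h and 9 at 48 h, without the calls of PXYLP1 and PAPSS2 at 24 h and of XYLT1 and SUMF2 at 48 h. Leaving out 1 library gave 1021 to 2941 calls over all genes at 12 h, 1105 to 4917 at 24 h, 791 to 4057 at 48 h and 64 to 1045 between 24 h and 48 h. Heparan sulfate calls ranged from 1 to 9, 3 to 21, 2 to 15 and 0 to 5, and chondroitin calls from 1 to 2, 2 to 7, 1 to 7 and 0 to 2. The causes were not tested. The lone library of a group is then assumed to vary like the others. Depth limits NDST2, with at most 21 reads, and NOTUM, with 7 and 12 reads at 48 h.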
